A study of Mus musculus with 10 samples.

Results

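Antiviral effectors, 10 genes listed for hindering viral entry, release or replication, were followed in beta cells exposed to LPS. The genes were Ifitm1, Ifitm2, Ifitm3, Bst2, Mx1, Mx2, Rsad2, Cmpk2, Samhd1 and Isg20. They were chosen by name as direct antiviral effectors, with earlier results of these data known. Each matched 1 of the 56748 Ensembl gene identifiers in the count tables. All 10 had at least 1 count and 9 passed the filter on low counts, of 15942 genes tested in all. The values are RNA-seq read counts of FACS-purified islet beta cells, the cells that secrete insulin. The islets came from male NOD mice, an inbred strain with spontaneous autoimmune diabetes, aged 6 to 8 weeks, and the labels give no genotype beyond the strain. Whole islets received lipopolysaccharide (LPS), a bacterial wall component sensed by Toll-like receptor 4, at 50 ng/ml for 48 hours (LPS, n = 5 libraries, numbered 6 to 10), or no LPS (untreated, n = 5 libraries, numbered 1 to 5). Dispersal and sorting followed. The libraries are described as independent samples, but the animals behind each are not named. Cells were exposed inside the islet, so that other islet cells were present during the exposure.

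Cells answer type I interferon through a receptor at their surface. Its signal acts on the interferon-stimulated response element (ISRE) in the promoters of many genes. Signalling from Toll-like receptor 4 can lead to the same genes through IRF3 and the production of interferon beta. Many of these genes also carry a basal level that does not need added interferon. In beta cells, which can be infected by enteroviruses, they form part of the innate defence.

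Totals assigned to genes ran from 18465188 to 27379892 in the LPS libraries and from 23269906 to 26137820 in the untreated libraries. Levels are given as CPM, counts scaled to a common sequencing depth, on library sizes scaled by TMM, whose factors lay between 0.979 and 1.02. Ins1 and Ins2, which define beta cells, were at 33957 and 61582 CPM in LPS and 36482 and 70376 CPM in untreated libraries, and neither was called. Of the 8 beta cell markers, 7 had a negative log2 fold change and 2 were called lower with groups that did not overlap. These were the glucose transporter gene Slc2a2 (205 CPM in LPS and 372 CPM in untreated libraries, edgeR adjusted p = 4.30e-05) and Ucn3 (277 CPM in LPS and 431 CPM in untreated libraries, edgeR adjusted p = 0.00143). Markers of other islet cells were present too, with Gcg of alpha cells at 6558 CPM in LPS and 8931 CPM in untreated libraries and Sst of delta cells at 6637 CPM in LPS and 7068 CPM in untreated libraries. Ppy of pancreatic polypeptide cells was called lower, at 783 CPM in LPS and 1558 CPM in untreated libraries (edgeR adjusted p = 0.0473). The 7 endothelial markers summed to between 9.08 and 12.5 CPM in the LPS libraries, against 10.3 CPM in untreated 1 and between 22.6 and 33.7 CPM in the other untreated libraries. Most of the sum in LPS libraries came from Esam, which was not called (8.52 CPM in LPS and 10.3 CPM in untreated libraries). Kdr was called lower, at 0.392 CPM in LPS and 3.51 CPM in untreated libraries (edgeR adjusted p = 0.0473), with 0.0777 CPM in untreated 1. The 10 macrophage markers summed to between 36.4 and 46.9 CPM in LPS and between 29.2 and 42.1 CPM in untreated libraries. Nearly all of that sum came from Cd68 (26.8 CPM in LPS and 16.8 CPM in untreated libraries, edgeR adjusted p = 0.0141) and C1qa (14.7 CPM in LPS and 18.7 CPM in untreated libraries), while Adgre1, which defines macrophages, had 1 count over all libraries and the leukocyte marker Ptprc had 0. The 6 ductal markers summed to between 522 and 669 CPM in LPS and between 445 and 572 CPM in untreated libraries, with 2 of them called higher. The part of these markers in the results was not tested except where stated. In such bulk samples, fewer cells of a type and less RNA per cell cannot be told apart.

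Of the 9 antiviral effectors tested, 4 were higher in the LPS libraries and none was lower. Bst2 rose 3.19-fold, Rsad2 2.10-fold, Mx2 1.69-fold and Isg20 1.37-fold. Mx1, Cmpk2, Ifitm2, Ifitm3 and Samhd1 did not pass, and Ifitm1 was too low to be tested. Genes passed at 0.05 after Benjamini-Hochberg adjustment over all 15942 genes, with p from the quasi-likelihood test of edgeR. Among all genes tested, 3.77% were called, 2.84% higher and 0.928% lower. The groups did not overlap for the same 4 members, all higher in LPS, which held for 3.84% of all genes tested, with 1.87% not overlapping and lower. Genes both called higher and not overlapping, as these 4 were, made up 2.57%. The median log2 fold change of the 9 members was 0.45, beside -0.01 over all genes tested.

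**Figure D1:**
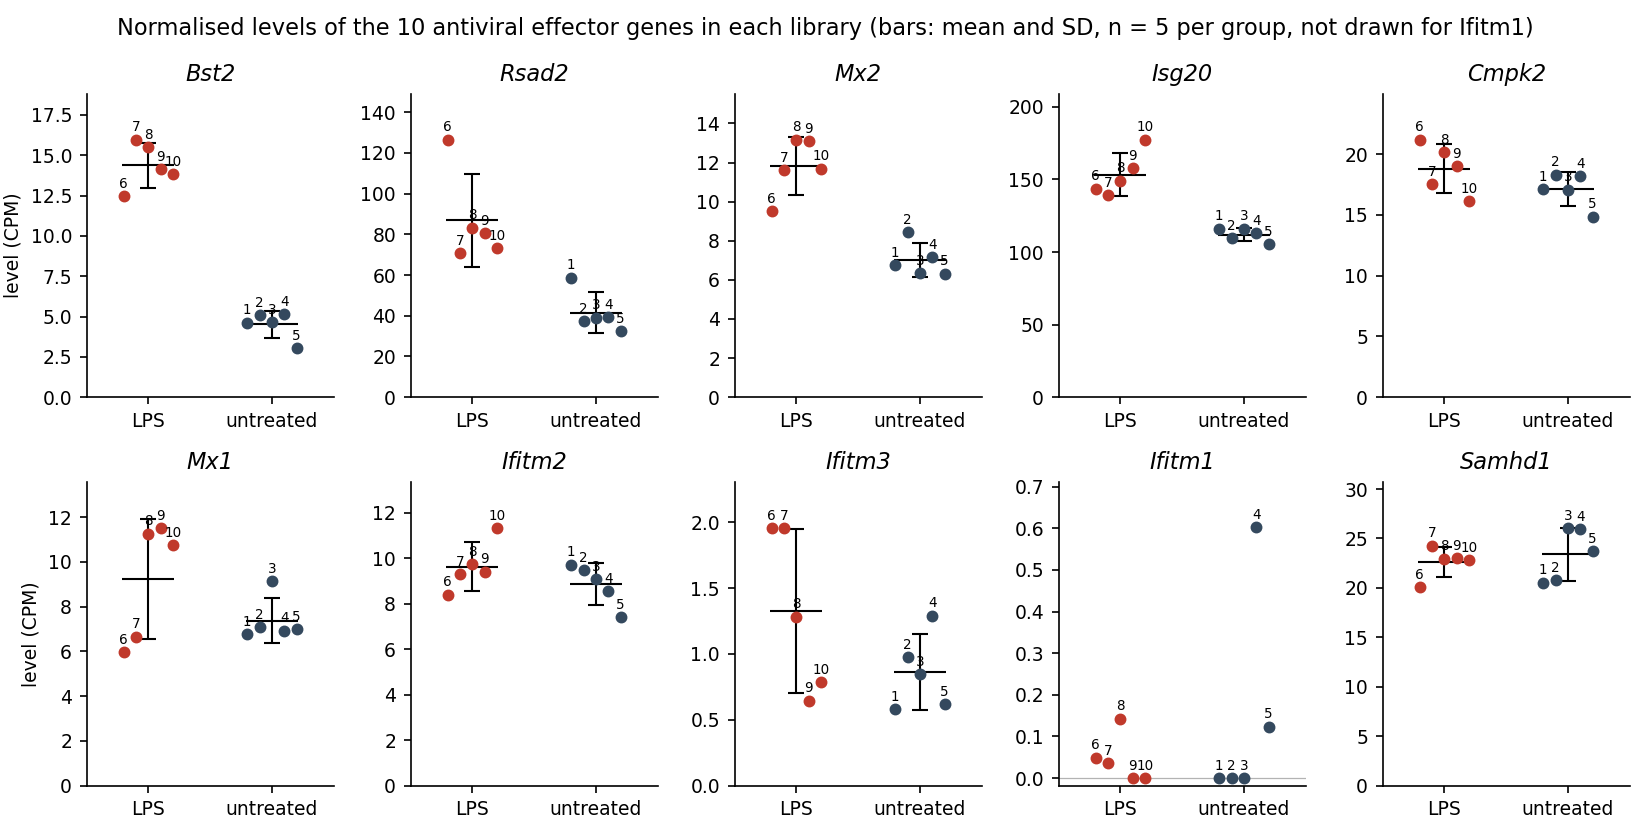
Level of each of the 10 antiviral effectors (CPM on TMM-scaled library sizes, vertical axes from 0) in the LPS libraries 6 to 10 and the untreated libraries 1 to 5. Each point is 1 library with its number, and bars give mean and SD (n = 5), not drawn for Ifitm1. For Bst2, Rsad2, Mx2 and Isg20 every LPS library lies above every untreated one, and for the other members the groups overlap.

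Bst2 encodes tetherin, a membrane protein that holds budding enveloped viruses at the cell surface. Its level was 12.4, 16.0, 15.5, 14.1 and 13.8 CPM in LPS 6 to 10, against 4.63, 5.07, 4.65, 5.16 and 3.04 CPM in untreated 1 to 5. All LPS libraries were above all untreated libraries. The means were 14.4 ± 1.40 CPM in LPS and 4.51 ± 0.857 CPM in untreated libraries (SD, n = 5 each). The fitted log2 fold change was 1.67 ± 0.14 (SE), with an edgeR adjusted p of 2.39e-05. None of its transcript's stretches of 50 bases occurs in a transcript of another annotated gene, and no other annotated gene shares its exons, so that its reads are not easily split. Bst2 kept its call in all 23 alternative fits, with log2 fold changes from 1.56 to 1.79.

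The promoter of Bst2 is shown because it held matches to all 3 of the motifs searched. It was the densest set among the members other than Mx1 and Mx2, which had no promoter sequence. The motifs were the ISRE core (GAAA, any 2 bases and GAAA again), the GAS motif TTCNNNGAA and the NF-kB consensus, each on both strands. The sequence is the 250 bases before the RefSeq start of the gene (GRCm38.p6, chr8:71537473-71537722, minus strand), read 5′ to 3′ towards the start, with matched bases in capitals.
Bst2: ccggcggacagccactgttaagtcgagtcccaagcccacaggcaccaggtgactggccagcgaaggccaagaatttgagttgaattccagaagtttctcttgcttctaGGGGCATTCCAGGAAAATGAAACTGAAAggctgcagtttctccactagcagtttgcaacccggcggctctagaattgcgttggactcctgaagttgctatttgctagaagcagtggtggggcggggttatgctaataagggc
In this run, the NF-kB match, 1 match to the GAS motif and 2 matches to the ISRE core overlap in a chain. Over windows from 250 bases before to 50 bases after the start, 3.44% of the 32851 promoters in the table held the ISRE core, 8.30% the GAS motif and 4.51% the NF-kB consensus. A match is a description of the letters and does not show binding.

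Rsad2 and Cmpk2 are neighbours on chromosome 12, on opposite strands and with their starts facing each other. Rsad2 encodes viperin, a radical SAM enzyme that turns CTP into a chain-terminating nucleotide, shown with the human protein. Cmpk2 encodes a mitochondrial kinase that phosphorylates CMP and UMP. In these libraries the pair parted: Rsad2 was called higher and Cmpk2 was not.

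Rsad2 stood at 126, 70.8, 83.3, 80.7 and 73.1 CPM in LPS 6 to 10, against 58.7, 37.3, 39.0, 39.5 and 32.6 CPM in untreated 1 to 5. A single library in each group, LPS 6 and untreated 1, lay far above the others of its group, and the groups still did not overlap. The means were 86.9 ± 22.7 CPM in LPS and 41.4 ± 10.1 CPM in untreated libraries (SD, n = 5 each). The fitted log2 fold change was 1.07 ± 0.18 (SE), with an edgeR adjusted p of 0.00301. Without both LPS 6 and untreated 1, a choice made after seeing the data, the log2 fold change was 1.05 ± 0.08 (edgeR adjusted p = 4.44e-05).

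Cmpk2 stood at 21.2, 17.5, 20.1, 19.0 and 16.2 CPM in LPS 6 to 10, against 17.1, 18.3, 17.1, 18.2 and 14.9 CPM in untreated 1 to 5. The groups overlapped, with 3 of the 5 LPS libraries above the highest untreated one. The log2 fold change was 0.13 ± 0.09 (SE; edgeR adjusted p = 0.554), with a 95% interval from -0.07 to 0.33. That interval lies below the fold change of Rsad2.

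The ratio of Cmpk2 to Rsad2 counts inside a library needs no scaling between libraries. It was 0.168, 0.248, 0.242, 0.236 and 0.221 in LPS 6 to 10, against 0.292, 0.492, 0.438, 0.462 and 0.457 in untreated 1 to 5. Every LPS library was below every untreated one. The mean log2 ratio differed by -0.93 between LPS and untreated (two-sided exact permutation p = 0.00794, the smallest that 252 arrangements allow; 0.0317 adjusted over 4 ratios). With any 1 LPS library left out, the adjusted exact permutation p was 0.0635 at 4 against 5 libraries, with differences from -0.97 to -0.83. The groups did not overlap in any of these comparisons. At these unequal sizes another arrangement of the libraries gave at least as large a difference.

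The promoters of this pair are shown because the genes adjoin and differed in their change. Each is the 250 bases before the RefSeq start (GRCm38.p6; Rsad2 chr12:26456453-26456702, minus strand; Cmpk2 chr12:26468965-26469214, plus strand), with matches to the same 3 motifs in capitals.
Rsad2: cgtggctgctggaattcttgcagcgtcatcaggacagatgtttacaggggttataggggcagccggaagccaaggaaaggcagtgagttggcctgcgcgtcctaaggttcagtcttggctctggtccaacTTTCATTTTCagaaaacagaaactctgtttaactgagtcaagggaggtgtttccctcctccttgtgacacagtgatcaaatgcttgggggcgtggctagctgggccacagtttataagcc
Cmpk2: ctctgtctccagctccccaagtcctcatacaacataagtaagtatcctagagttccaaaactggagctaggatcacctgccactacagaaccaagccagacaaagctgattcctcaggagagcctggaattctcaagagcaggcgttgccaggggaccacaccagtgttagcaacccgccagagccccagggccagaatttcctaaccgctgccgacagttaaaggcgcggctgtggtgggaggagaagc
The Rsad2 window held 1 ISRE core, read on the opposite strand, between 120 and 111 bases before the start. The Cmpk2 window held none of the 3 motifs, which says only that these letters are not in this window.

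**Figure D2:**
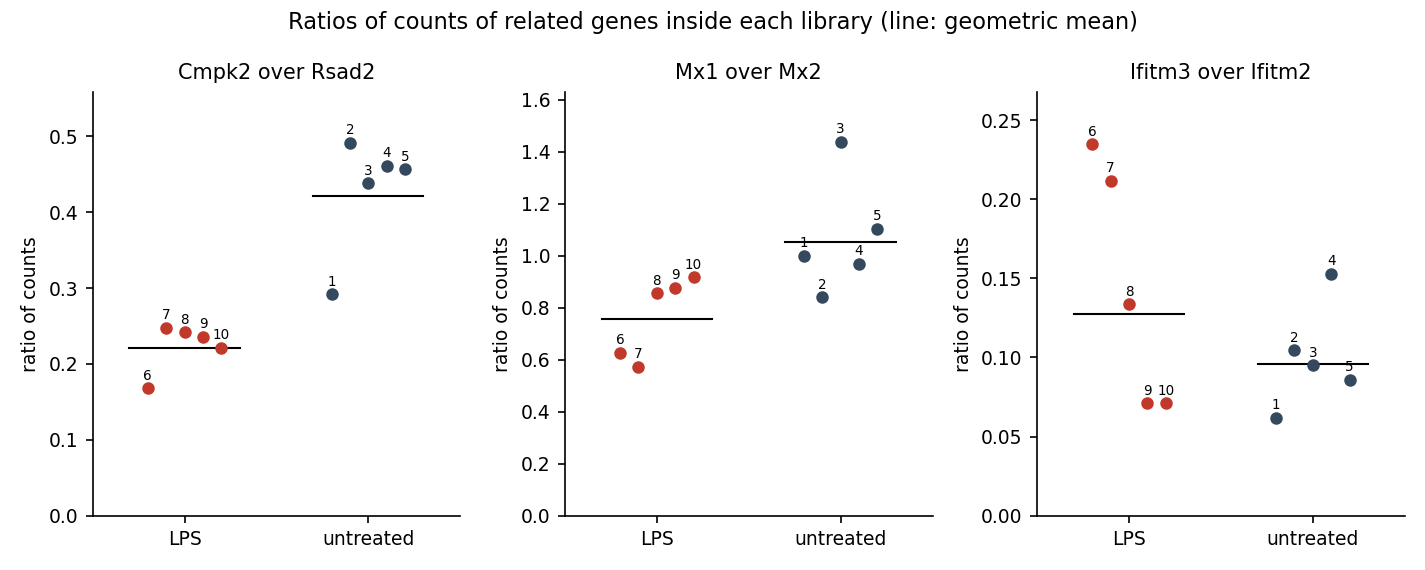
Ratio of counts of 2 related genes (vertical axes from 0) inside each LPS library (6 to 10) and each untreated library (1 to 5), with the geometric mean as a line. For Cmpk2 over Rsad2 the LPS libraries lie between 0.168 and 0.248 and all untreated ones at 0.292 or above, while the groups overlap for Mx1 over Mx2 and for Ifitm3 over Ifitm2.

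Mx1 and Mx2 encode dynamin-like GTPases that trap viral nucleocapsids, in mice in the nucleus for Mx1 and in the cytoplasm for Mx2. Both lie on chromosome 16 with Fam3b between them. RefSeq lists both as transcribed pseudogenes in the reference strain C57BL/6J, and many laboratory strains carry defective Mx alleles. The counts say nothing of whether NOD cells make either protein.

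Mx2 stood at 9.52, 11.6, 13.2, 13.1 and 11.7 CPM in LPS 6 to 10, against 6.76, 8.43, 6.34, 7.14 and 6.32 CPM in untreated 1 to 5. The groups did not overlap, and LPS 6 was the lowest of the LPS libraries. The means were 11.8 ± 1.49 CPM in LPS and 7.00 ± 0.870 CPM in untreated libraries (SD, n = 5 each). The fitted log2 fold change was 0.75 ± 0.12 (SE), with an edgeR adjusted p of 0.00228.

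Mx1 stood at 5.96, 6.66, 11.3, 11.5 and 10.7 CPM in LPS 6 to 10, against 6.76, 7.09, 9.13, 6.93 and 6.98 CPM in untreated 1 to 5. LPS 8, 9 and 10 were above all untreated libraries, and LPS 6 and 7 were below all of them. The spread among LPS libraries (SD 2.69 CPM) was wider than among untreated libraries (0.984 CPM). The log2 fold change was 0.32 ± 0.19 (SE; edgeR adjusted p = 0.470; 95% interval from -0.09 to 0.72), so that a rise of the size of Mx2's in Mx1 lay just outside its interval. The ratio of Mx1 to Mx2 counts ran from 0.574 to 0.919 in LPS and from 0.842 to 1.44 in untreated libraries. Its mean log2 difference of -0.48 did not pass (two-sided exact permutation p = 0.0317, and 0.0635 adjusted over 4 ratios). Without single libraries the adjusted exact permutation p ran from 0.0317 to 0.159, with 0.0317 reached without untreated 2. Untreated 2 was the only untreated library below the highest LPS ratio, so that leaving it out removes the overlap by itself. Of the 50-base stretches in their annotated transcripts, 4.37% of Mx1's and 4.38% of Mx2's occur in transcripts of other genes, each other among them.

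Isg20 encodes an exonuclease that degrades single-stranded RNA. It was the most abundant member in CPM, at 144, 139, 149, 158 and 177 CPM in LPS 6 to 10, against 116, 110, 116, 113 and 105 CPM in untreated 1 to 5. The groups did not overlap although the change was small. The means were 153 ± 15.1 CPM in LPS and 112 ± 4.63 CPM in untreated libraries (SD, n = 5 each). The fitted log2 fold change was 0.45 ± 0.07 (SE), with an edgeR adjusted p of 0.00196. RefSeq gives Isg20 3 start windows, which held 1 match to the GAS motif and none to the ISRE core or the NF-kB consensus.

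Samhd1 encodes a triphosphohydrolase that lowers the pool of deoxynucleotides that reverse transcription and DNA viruses need. Its level was 20.1, 24.3, 23.0, 23.0 and 22.8 CPM in LPS 6 to 10, against 20.5, 20.8, 26.0, 25.9 and 23.7 CPM in untreated 1 to 5. The groups overlapped, and no LPS library exceeded the highest untreated one. The log2 fold change was -0.05 ± 0.09 (SE; edgeR adjusted p = 0.871), and its 95% interval from -0.24 to 0.15 leaves out the change of Isg20. The other 12 genes of a nucleotide supply list were all tested, among them the kinase Cmpk1 (82.2 ± 3.95 CPM in LPS and 84.0 ± 4.93 CPM in untreated libraries) and the ribonucleotide reductase subunit Rrm2b (47.8 ± 5.09 CPM in LPS and 54.7 ± 3.13 CPM in untreated libraries). None passed in the edgeR fit used here, with 2 at an unadjusted p under 0.05 and a median log2 fold change of 0.02. The alternative fit with a surrogate variable called 1 higher and 1 lower, and edgeR with a filter at 1 CPM, DESeq2 and limma-voom each called 1 higher. With sample quality weights in limma-voom 1 was called lower.

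The IFITM proteins sit in endosomal and plasma membranes and hinder the fusion of viral and cell membranes. Their genes lie side by side on chromosome 7. Of the members, 4 held the ISRE core near the start, while Mx1 and Mx2 had no promoter sequence and were not searched. The surroundings of the core are shown because 2 of the 4 are IFITM genes that did not pass. Each stretch has 30 bases, read in the direction of the motif, with the core matches in capitals (GRCm38.p6; Bst2 chr8:71537580-71537609, minus strand; Rsad2 chr12:26456553-26456582, plus strand; Ifitm2 chr7:140955988-140956017, minus strand; Ifitm3 chr7:141010715-141010744, minus strand).
Bst2: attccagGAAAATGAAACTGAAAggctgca
Rsad2: tctgttttctGAAAATGAAAgttggaccag
Ifitm2: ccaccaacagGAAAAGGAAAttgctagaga
Ifitm3: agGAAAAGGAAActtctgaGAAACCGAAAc
Bst2 and Rsad2 share the letters GAAAATGAAA, and Ifitm2 and Ifitm3 share GAAAAGGAAA. Ifitm3 held 2 separate cores, which lie just after its start.

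Ifitm2 was the main IFITM transcript, at 8.40, 9.30, 9.74, 9.40 and 11.3 CPM in LPS 6 to 10, against 9.72, 9.49, 9.08, 8.56 and 7.39 CPM in untreated 1 to 5. The groups overlapped, and the fitted difference was 0.12 ± 0.11 on the log2 scale (SE; edgeR adjusted p = 0.680; 95% interval from -0.12 to 0.36). Of its 50-base stretches, 48.5% occur in transcripts of other annotated genes. The model Gm45717 on the same strand covers 40.9% of its exon bases and is listed at 0 counts in all libraries. Reads in such stretches may have been left out as ambiguous or as aligning to several places, so that the level of Ifitm2 is uncertain.

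Ifitm3 was low, with 40, 54, 27, 12 and 19 counts in LPS 6 to 10 and 15, 24, 20, 30 and 15 counts in untreated 1 to 5. These were 1.95, 1.95, 1.28, 0.645 and 0.787 CPM in LPS and 0.583, 0.973, 0.845, 1.29 and 0.616 CPM in untreated libraries. LPS 6 and 7 were above every untreated library and the other LPS libraries were not. The log2 fold change was 0.63 ± 0.35 (SE; edgeR adjusted p = 0.439), and its 95% interval from -0.13 to 1.39 is the widest of the members tested. The ratio of Ifitm3 to Ifitm2 counts ran from 0.0712 to 0.235 in LPS and from 0.0619 to 0.153 in untreated libraries and did not pass (log2 difference 0.41; two-sided exact permutation p = 0.341; 0.455 adjusted over 4 ratios).

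Ifitm1 had 1, 1, 3, 0 and 0 counts in LPS 6 to 10 and 0, 0, 0, 14 and 3 counts in untreated 1 to 5. The sums were 5 counts in LPS and 17 in untreated libraries, of which untreated 4 held 14. That library also had the highest sum of endothelial markers, 33.7 CPM, and the highest sum of the 6 mesenchymal markers, 69.7 CPM. The part of other cells in its counts was not tested. Its ratio to Ifitm3 did not pass (log2 difference -0.74; two-sided exact permutation p = 0.508, also 0.508 adjusted over 4 ratios). Of the other Ifitm genes, Ifitm6 and Ifitm7 had no count in any library. A limit of 3 counts over a group, for counting error alone, corresponds to 0.0269 CPM in LPS and 0.0246 CPM in untreated libraries. Ifitm5 had 0 counts over the LPS and 3 over the untreated libraries, and Ifitm10 had 7 and 13 counts in LPS and untreated libraries.

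Compared per kilobase of exon, which sets genes of different length side by side, the levels spanned a wide range. In LPS libraries Isg20 led with 82.4 ± 8.12 CPM per kilobase (SD, n = 5), followed by Rsad2 (20.04), Bst2 (15.9), Ifitm2 (14.7), Cmpk2 (4.52), Mx2 (3.27), Samhd1 (2.47), Mx1 (2.44), Ifitm3 (1.95) and Ifitm1 (0.0416). The libraries of Rsad2 and Bst2, of Bst2 and Ifitm2, and of each neighbouring pair from Mx2 to Ifitm3 overlapped in this order. In untreated libraries Isg20 led with 60.2 ± 2.49 CPM per kilobase, followed by Ifitm2 (13.5), Rsad2 (9.55), Bst2 (4.99), Cmpk2 (4.11), Samhd1 (2.56), Mx1 (1.95), Mx2 (1.94), Ifitm3 (1.27) and Ifitm1 (0.133). Neighbours from Samhd1 to Ifitm3 overlapped here too, as did Ifitm2 and Rsad2. Bst2 overlapped in level with Rsad2 and Ifitm2 in LPS libraries and with Cmpk2 in untreated libraries. Lengths are those of all annotated exons in GENCODE M21 (GRCm38), so that genes with long rare exons such as Samhd1 (9150 bases) may be set too low.

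**Figure D3:**
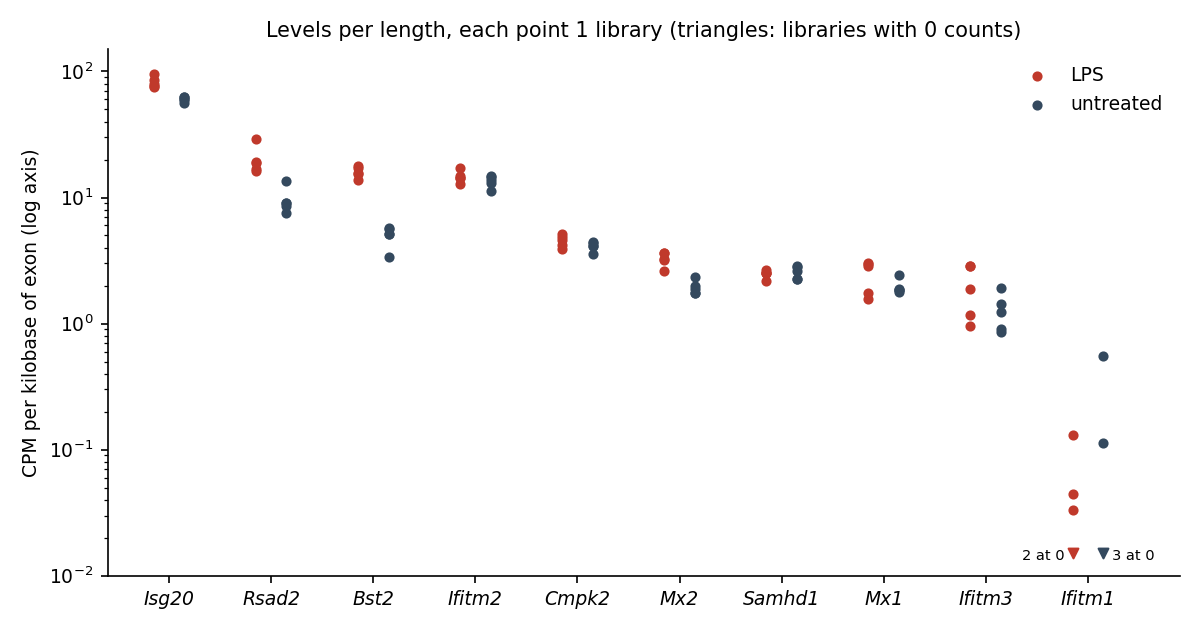
Level per length (CPM per kilobase of exon, log axis) of each antiviral effector, ordered by the mean in LPS libraries, with 1 point for each LPS and each untreated library and triangles for libraries with 0 counts. Isg20 lies highest in both groups, Bst2 overlaps with Ifitm2 in LPS libraries and with Cmpk2 in untreated libraries, and Ifitm1 lies at or near 0.

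The members did not move as a block from library to library. LPS 6 was the lowest LPS library for Bst2, Mx1, Mx2, Ifitm2 and Samhd1 and the highest for Rsad2 and Cmpk2. LPS 10 was the highest for Isg20 and Ifitm2 and the lowest for Cmpk2. Among untreated libraries, untreated 5 was the lowest for 6 of the 9 members tested, all but Mx1, Ifitm3 and Samhd1. For the members tested, the coefficient of variation within LPS libraries ran from 6.83% for Samhd1 to 46.9% for Ifitm3, and within untreated libraries from 4.13% for Isg20 to 33.6% for Ifitm3.

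Of 25 other direct antiviral effectors, 22 were tested and 12 were called higher, none lower, with a median log2 fold change of 0.62, beside 2.84% called higher among all genes tested. With the endothelial covariate 6 were called higher, and 6 with the ENSMUSG00000119584 covariate. Oas2, which makes the activator of RNase L, had 44.6 ± 5.11 CPM in LPS and 9.46 ± 1.44 CPM in untreated libraries (SD, n = 5 each), and the fitted log2 fold change was 2.24 ± 0.12 (SE) with an edgeR adjusted p of 3.59e-07. Its relatives Oasl2 (1.64) and Oas1a (1.47) rose as well, with reads of the Oas1 copies open to a split between near-identical sequences. Of 12 genes of type I interferon signalling 6 were called higher and none lower (median 0.47). The 3 with the smallest adjusted p were the transcription factor genes Irf7 (log2 fold change 2.01) and Irf9 (0.83) and the inhibitor Usp18 (0.79). Both lists were chosen with earlier results of these data known, so that their counts of called genes are descriptive only.

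**Figure D4:**
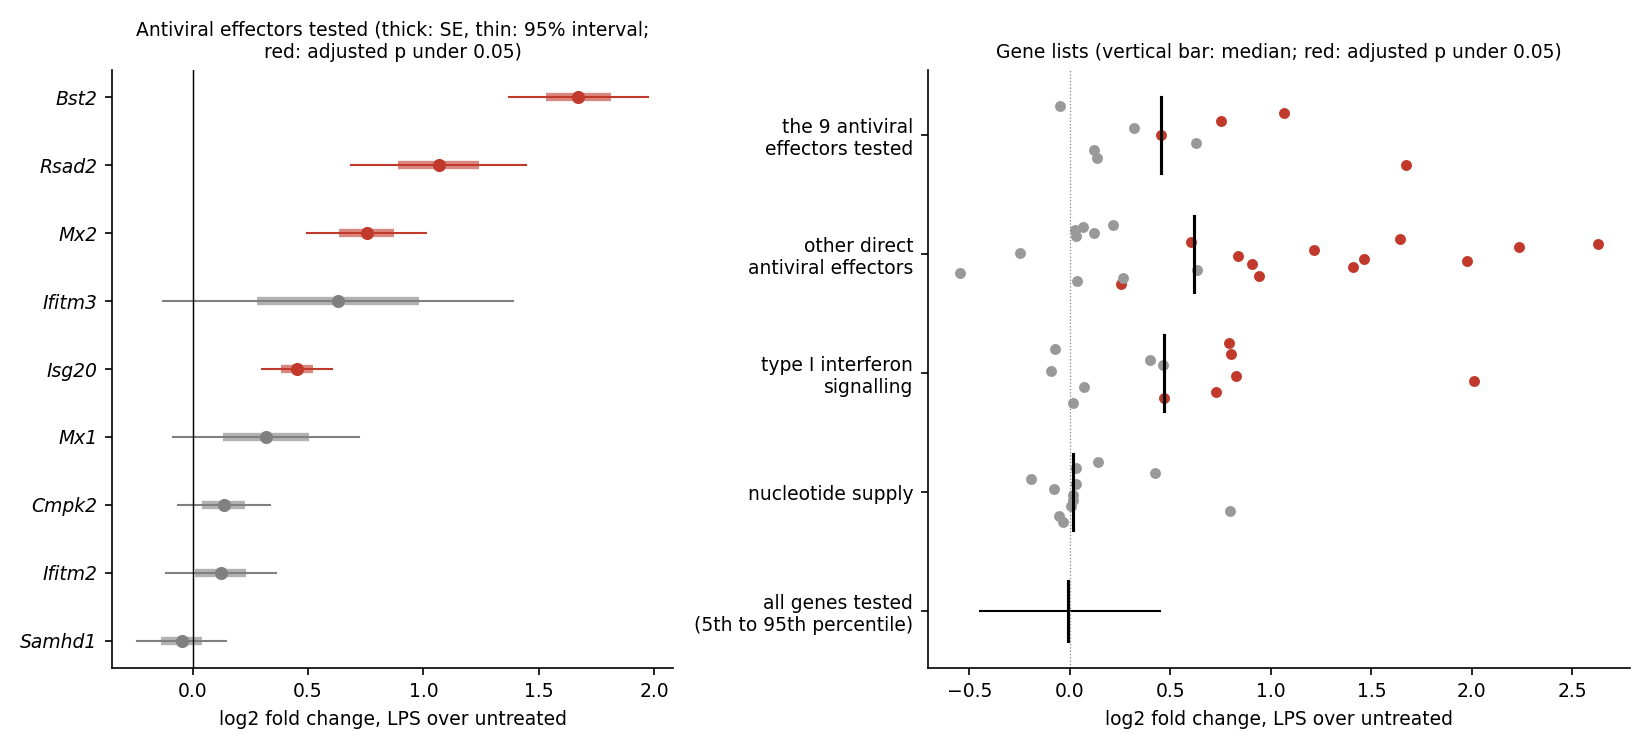
Log2 fold change of LPS over untreated for the 9 antiviral effectors tested, with SE and 95% interval (left), and for each gene of 4 lists with the list median (right), above the 5th to 95th percentile of all genes tested. The 4 called members (red) run from 0.45 for Isg20 to 1.67 for Bst2, and Oas2 and Irf7 of the other lists lie at 2.24 and 2.01.

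The 5 genes outside the members with the level profile closest to the members' mean were taken. Likeness was the root mean square difference of log2 CPM over the 10 libraries, after centring each gene on its own mean, among 11887 named protein-coding genes with a mean of at least 1 CPM, predicted genes left out. They were Tmem176a (0.0738), the TNF receptor gene Tnfrsf1a (0.0811), Mettl7a1 (0.0871), Parp9 (0.0882) and Samd9l (0.0926). Parp9 and Samd9l are interferon-inducible genes. Their log2 fold changes, between 0.44 and 0.57, follow from the choice, since the members' mean was itself higher in LPS. The members themselves lay between 0.112 for Isg20 and 0.550 for Bst2 from their own mean.

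Isg20 and Rsad2 were no longer called when either of 2 features of the libraries was a covariate, and Mx2 with the second only. With the mean of the endothelial markers as a covariate, Bst2 (log2 fold change 1.76, edgeR adjusted p = 0.00207) and Mx2 (0.86, edgeR adjusted p = 0.0391) stayed called. Rsad2 (0.68, edgeR adjusted p = 0.228) and Isg20 (0.39, edgeR adjusted p = 0.157) did not. Untreated 1 had an endothelial sum of 10.3 CPM, within the range of the LPS libraries. Its Rsad2, Isg20, Bst2 and Mx2 levels were all below those of every LPS library. Its Rsad2 level, 58.7 CPM, was also the highest of the untreated libraries. Its Isg20 level, 116.073 CPM, was nearly equal to the highest, 116.145 CPM in untreated 3. The Bst2 and Mx2 levels of untreated 1 were not the highest. This is a single library, and the part of endothelial cells in its levels was not tested. The share of counts of ENSMUSG00000119584, an abundant identifier without a symbol, was 0.227 to 0.427% in LPS and 0.366 to 0.942% in untreated libraries. With that share as a covariate only Bst2 was called (1.79, edgeR adjusted p = 0.00224), while Rsad2 (1.06, edgeR adjusted p = 0.199), Mx2 (0.79, edgeR adjusted p = 0.112) and Isg20 (0.43, edgeR adjusted p = 0.157) did not pass. Both features were lower on average in LPS libraries, so that their part and that of the exposure cannot be told apart in these fits. Over all genes tested, 453 were called higher without a covariate, 119 with the endothelial covariate and 141 with the share.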

How the data were processed

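RNA-seq was done on sorted beta cells, 5 LPS and 5 untreated libraries, grouped by the sample titles. The authors deposited whole-number read counts for each Ensembl gene, not normalized, in a table for each library. The submitters' processing notes name FastQC, Trimmomatic, STAR, SAMtools, HTSeq, DESeq2 and the build GRCm39. Their versions and settings, the annotation, the kit and strandedness were not given in the sources used here, so that overlapping and antisense genes may share reads, and NOD reads were counted on a reference of another strain. Entries that name no gene were left out, with reads outside genes at 8.84 to 12.9%, ambiguous reads at 1.40 to 1.61% and reads aligned to several places at 4.89 to 6.10%. Identifiers were matched to symbols from a reference table of gene names (52073 of 56748), and Shfl by an older RefSeq name. Exon lengths and shared stretches come from GENCODE M21 (GRCm38), promoters from RefSeq (GRCm38.p6, 8 of the 10 members, without Mx1 and Mx2).

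Counts were analysed in R 4.3.3 with edgeR 4.0.16 (filterByExpr, minimum count 10 and minimum total 15; TMM; quasi-likelihood F test; no covariate; Benjamini-Hochberg adjustment over all 15942 genes tested). SE and 95% intervals come from the fitted log2 fold change and its F statistic. Ratios used counts plus 0.5 and two-sided exact permutation tests. Data were also simulated at the same library sizes, with each library drawn independently. There edgeR recovered 34 of 40 genes changed 2-fold upwards and 16 of 40 changed 1.4-fold upwards. Of genes lowered to 0.5-fold it recovered 25 of 40, and of those lowered to 0.714-fold 15 of 40. It made 6 calls among 15742 unchanged genes. Every pair of libraries inside a group differed by more than counting noise (chi-square per gene of at least 6.13), so that none was taken for a copy of another. This does not show that they came from separate animals. P-values measure the spread between these libraries. Limits for 0 counts cover counting error only, as reads may be copies of 1 molecule.

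The members and lists were chosen with earlier results of these data known. Named were all members, the other Ifitm genes, up to 3 called genes with the smallest adjusted p in each list (the 2 most abundant where none was called), the 5 genes of the most similar profile (mean of at least 1 CPM, 0.5 CPM added before the log), the 2 most abundant genes of each marker list and ENSMUSG00000119584. Adgre1, Ptprc, Slc2a2 and Ucn3 were named after their values were seen. Alternatives were other scalings (DESeq2 size factors, upper quartile, library sizes without the 20 most abundant genes), other filters (none, or 1 CPM in 5 libraries), DESeq2 1.42.0, limma-voom (3.58.1) with and without quality weights, a surrogate variable (sva 3.50.0), 3 covariates (macrophage markers, endothelial markers, the share of ENSMUSG00000119584) and leaving out libraries. Figures used Python 3.11.15 and matplotlib 3.10.9.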

Additional observations from a re-analysis of the deposited data

Results flagged for a closer look

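In 24 groups of 5 libraries (9 members and 3 ratios in LPS and in untreated libraries), 5 held a library whose gap to its nearest neighbour exceeded 0.71 of the group's range. For independent, normally distributed values this happens in about 1 of 20 groups. The ratios reuse the counts of the members, so that the 24 groups are not independent and the number flagged is descriptive only. Rsad2 was at 126 CPM in LPS 6, where the next library had 83.3 CPM, and at 58.7 CPM in untreated 1, where the next had 39.5 CPM. The log2 ratio of Cmpk2 to Rsad2 was -1.78 in untreated 1, with the nearest library at -1.19. Mx1 was at 9.13 CPM in untreated 3, with the nearest library at 7.09 CPM. Bst2 was at 3.04 CPM in untreated 5, with the nearest library at 4.63 CPM. The cause was not tested.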

How the results depend on the processing

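Of the 9 members tested, 4 were called higher in all 10 fits that left out 1 library and in all other fits but those with the endothelial covariate (2) and the ENSMUSG00000119584 covariate (1). None was called lower in any fit. Mx1 had a log2 fold change of -0.030 with the ENSMUSG00000119584 covariate and Samhd1 one of 0.10 with the endothelial covariate, with neither called. Over all 23 alternatives the log2 fold change ran from 0.68 to 1.23 for Rsad2, from 0.71 to 0.86 for Mx2 and from 0.39 to 0.49 for Isg20. Without single libraries, the log2 difference of the Cmpk2 to Rsad2 ratio ran from -1.06 to -0.83 (adjusted exact permutation p from 0.0317 to 0.0635) and that of the Mx1 to Mx2 ratio from -0.56 to -0.36 (0.0317 to 0.159).

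The count of all genes called higher (453) was 693 with quality weights in limma-voom, 864 with the surrogate variable, 119 with the endothelial covariate and 141 with the ENSMUSG00000119584 covariate, and ran from 324 to 458 without single libraries. The count called lower (148) was 292 with DESeq2, 301 with quality weights, 471 with the surrogate variable, 8 with the endothelial covariate and 16 with the ENSMUSG00000119584 covariate, and ran from 75 to 166 without single libraries. Of the other direct antiviral effectors, 6 were called higher with each of these covariates and 9 to 12 without single libraries. In the nucleotide supply list 1 gene was called higher with the filter at 1 CPM, with DESeq2, with limma-voom and with the surrogate variable, and 1 lower with quality weights and with the surrogate variable. The cause was not tested. Ifitm3 was not tested with the filter at 1 CPM, and Ifitm1 was tested by edgeR only without a filter, where it was not called. No paired analysis was run, because the titles number the libraries 1 to 10 with no number shared between the groups and no label pairs them. The surrogate variable rose in the numbered order in both groups. It went from -0.41 in untreated 1 to 0.44 in untreated 5 and from -0.53 in LPS 6 to 0.53 in LPS 10. Whether the groups share an order of preparation is not stated and was not tested. Ifitm3 rested on 12 to 54 counts a library, and Ifitm1 and the other Ifitm genes were under the filter.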
